A study of Mus musculus with 6 samples.

Results

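Islet preparations from 6 mice were ordered by how much RNA of the exocrine pancreas they carried, and the 3 exocrine-rich arrays were set against the 3 exocrine-poor ones. Each array held RNA of islets of Langerhans from a different mouse aged 8 weeks on a mixed SV 129/C57BL/6 background, and all 6 mice carried floxed Ppar-beta alleles (PPARbetafl/fl). The 3 arrays labelled control came from littermates without Cre. The 3 arrays labelled knockout came from Pdx1Cre;PPARbetafl/fl mice, in which the Pdx1 promoter drives Cre recombinase. Pdx1 is active in the progenitors of the whole pancreas, so exocrine as well as endocrine cells can carry the deletion, and 0 arrays came from Cre-positive mice with intact alleles. The islets were released with collagenase and separated on a Histopaque density gradient, and the labels name the material beta-cells although the protocol describes whole islets. The extraction protocol covers both islet and whole-pancreas RNA without saying which arrays held which, and the design text names islets.

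The arrays were chosen by a measured value, the log2 level of 7 genes of acinar cells: the elastases Cela1 and Cela2a, the carboxypeptidase Cpb1, the zymogen granule proteins Gp2 and Zg16, the kallikrein Klk1 and the ribonuclease Rnase1. Their mean per array over 12 probe sets was 11.15 in control 3, 11.15 in control 2, 8.32 in knockout 1, 6.93 in control 1, 5.76 in knockout 3 and 5.62 in knockout 2. Controls 2 and 3 and knockout 1 were therefore the exocrine-rich arrays, 3 of 6, and control 1 and knockouts 2 and 3 the exocrine-poor arrays. The boundary falls between knockout 1 and control 1, which were 1.38 apart on the log2 scale, while knockout 1 stood 2.83 below the next rich array and control 1 stood 1.17 above the next poor array. The preparations thus form a graded series more than a pair of separate blocks. Because measured values set the split, every rich-against-poor value below is a description, without a test and without a p-value.

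Acinar cells make up most of the pancreas and export digestive enzymes that are stored as inactive precursors in zymogen granules. Their transcription is dominated by a small set of secretory genes, controlled by the PTF1 complex, in which PTF1A and a partner bind an E-box and RBPJL or RBPJ binds a neighbouring TC box. Islets lie embedded in this tissue, and collagenase digestion frees them with varying amounts of attached acinar cells. In a whole preparation, more acinar cells and more acinar RNA per cell cannot be told apart.

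As a check on the material, the hormone genes stood at the top of the scale in all 6 arrays. Insulin 2 (Ins2) lay between 13.71 and 13.87, islet amyloid polypeptide (Iapp) between 14.05 and 14.12 and glucagon (Gcg) between 13.75 and 13.98. The highest log2 value on any array was 14.12, so these genes stood near the top of the array scale in every preparation. Ppard, the targeted gene, differed between arrays labelled knockout and control by 0.43 ± 0.22 (SE) with the exocrine class in the fit and was not lower (limma, adjusted p = 0.544). The labels do not say which exon was removed, and probes that lie elsewhere in the transcript cannot check the deletion, so genotype rests on the labels, and knockout 1 to 3 below mean the libraries labelled so. Median log2 values per array lay between 5.39 and 5.49. Pairs of arrays correlated at 0.978 to 0.993 over all probe sets, and at 0.981 to 0.993 without the acinar and Reg genes.

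Few genes differed by 2-fold or more between the rich and the poor preparations. The rich-minus-poor difference is the mean of the gap within controls (controls 2 and 3 minus control 1) and the gap within knockouts (knockout 1 minus knockouts 2 and 3). A gene was counted when this difference was at least 2-fold and, inside each genotype, the rich and poor arrays did not overlap and lay the same way. Of 18193 genes, 46 were counted higher in the rich arrays (0.253%) and 16 lower (0.0879%). Since the contrast itself came from measured values, these shares serve only as the background for the counts that follow. At any size, 8.62% of genes lay higher and 12.3% lower in the rich arrays of both genotypes without overlap. Of the 46 higher genes, 31 belonged to the lists of acinar genes and of Reg genes, and of the 30 that were at least 8-fold higher, 27 did. Of all 18193 genes, 18135 were on none of these lists. The 31 were the 7 genes that set the split, 19 other acinar secretory genes and 5 Reg genes. All 7 split genes are also among the 27, and their place in both counts follows from the split. In 42 of the 46 and in 11 of the 16 the rich and poor arrays did not overlap over all 6 arrays either. Among all genes these shares were 3.62% higher and 4.95% lower. The counted genes had already been selected for no overlap inside each genotype, so this adds no separate support. The counts changed with the array left out. Without knockout 1, where the gap rests on the controls alone, 155 genes were higher and 188 lower. Without control 1, where it rests on the knockouts alone, 60 were higher and 39 lower, and without knockout 2 there were 60 and 31.

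All 7 genes that set the split were 3.54 to 4.20 higher in the rich arrays. Zg16, a lectin-like protein of the granule membrane, read 13.03 and 13.07 in controls 2 and 3, 10.51 in knockout 1, 8.72 in control 1 and 6.30 and 6.56 in knockouts 2 and 3. Cela1 read 12.62 and 12.51 in controls 2 and 3, 9.43 in knockout 1, 8.09 in control 1 and 5.58 and 5.67 in knockouts 2 and 3. Gp2, the main glycoprotein of zymogen granule membranes, read 10.22 and 9.94 in controls 2 and 3, but only 5.94 in knockout 1, against 4.91 in control 1 and 4.06 and 3.99 in knockouts 2 and 3. Every one of these genes put the arrays in the order of the split, with controls 2 and 3 far above the rest and knockout 1 between them and control 1. Klk1 is less certain than the others, because kallikrein genes are near-identical copies: 1 of its 4 probe sets differed by 0.06 and another by 1.07, against 3.93 for the brightest.

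The remaining secretory proteins of acinar cells, which the split did not use by name, showed the same order. Of 29 entries on this list 22 had a probe set named for them alone, and 19 of those 22 were counted higher, 0 lower and 3 neither. Their mean was 10.01 and 10.23 in controls 2 and 3, 7.58 in knockout 1, 5.92 in control 1 and 5.12 and 5.25 in knockouts 2 and 3. The median difference was 3.64, against -0.03 for all genes.

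The 4 largest differences on this list were those of Cel, Pnliprp2, Clps and Pnliprp1. Cel, the bile-salt-activated lipase, read 11.35 and 11.22 in controls 2 and 3, 8.44 in knockout 1, 5.88 in control 1 and 4.08 and 4.62 in knockouts 2 and 3, a difference of 4.74 ± 0.32 (SE of the fit). Pnliprp2, a pancreatic lipase-related protein, differed by 4.60 ± 0.54, and Clps, the colipase that anchors lipase to fat droplets, by 4.57 ± 0.29. In these genes no rich array overlapped a poor one. Among proteases and their inhibitor, chymotrypsin-like Ctrl differed by 4.38, the chymotrypsinogen gene Ctrb1 by 3.22, the trypsinogen gene Prss2 by 3.48 and the trypsin inhibitor Spink1 by 4.27. Ctrc, another chymotrypsin-like protease, departed from the pattern: it read 11.52 in control 3 but 5.80 in control 2, below the 7.96 of knockout 1. No other acinar gene counted here differed as much between controls 2 and 3, where the median absolute gap was 0.11 and that of Ctrc was 5.73. The 3 genes not counted were Amy1, an amylase gene better known from the salivary gland (6.83 and 6.86 in controls 2 and 3, and 3.80 in knockout 1 between knockouts 2 and 3), Serpini2 (0.96) and Dnase1 (-0.03).

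**Figure D1:**
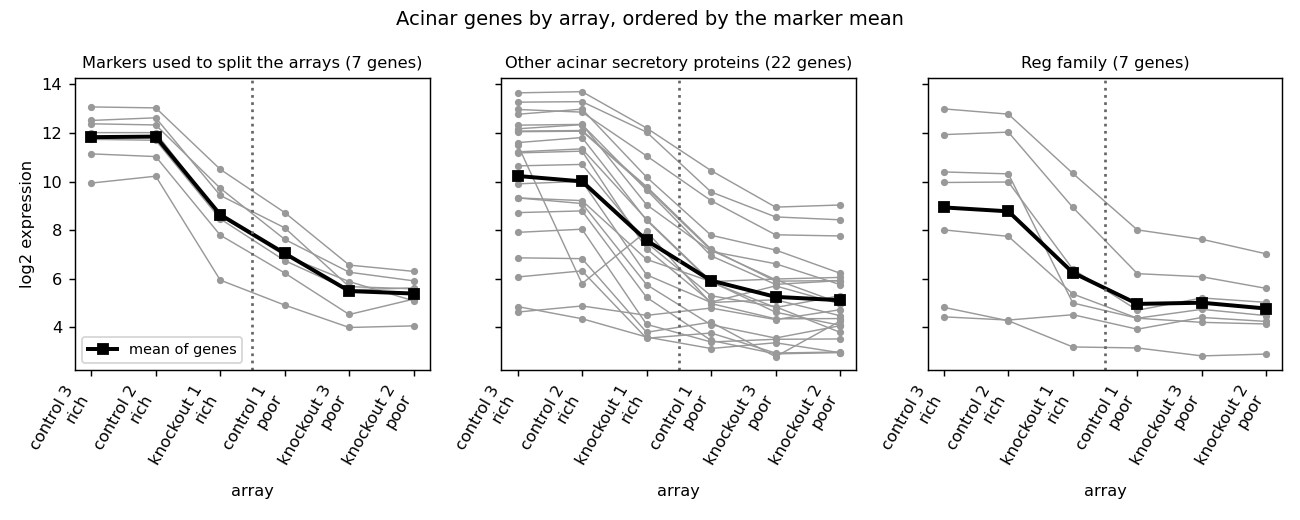
Log2 expression of the 7 markers that set the split, 22 other acinar secretory proteins and 7 Reg genes in each of the 6 arrays, ordered by the marker mean. Grey lines join the values of 1 gene, black squares are the mean of the genes and the dotted line is the boundary between rich and poor arrays. The mean of the 22 other acinar genes falls from about 10.23 in control 3 to 7.58 in knockout 1 and 5.12 in knockout 2, and the grey line that drops to 5.80 in control 2 is Ctrc.

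Acinar secretory genes are a standard case of shared promoter elements, and the sequence from 250 bases before to 50 bases after the start site was searched on both strands, in RefSeq promoters of GRCm38.p6, for the E-box CACCTG, the TC box TTTCCC and a full PTF1-type element, that is CANNTG, 4 further bases and TTTCCC. The full element always contains the TC box and can contain the E-box. Promoters were listed for 22 of the 29 measured acinar secretory genes, 24 promoters in all. The E-box was present in 12 of these 24 and in 20.2% of all 32851 promoters of this length, and the TC box in 6 of 24 (25.0%) against 25.2%. The full element was found in 2 of the 24, those of Cela1 and Ctrb1, and in 31 of all promoters (0.0944%). These are letter matches, given as a description. The promoters below are those of Cela1 and Ctrb1, which hold the full element, of Cel, which had the largest difference and holds 4 E-boxes, and of Reg3b, whose level in knockout 1 was close to the poor arrays and which holds an E-box and a TC box at another spacing. Capitals mark the E-boxes and TC boxes on either strand, including the CAGCTG of the Ctrb1 element. In Cela1 the element starts 109 bases before the start site and in Ctrb1 205 bases before it.
Cela1 (chr15:100687871-100688170, minus strand): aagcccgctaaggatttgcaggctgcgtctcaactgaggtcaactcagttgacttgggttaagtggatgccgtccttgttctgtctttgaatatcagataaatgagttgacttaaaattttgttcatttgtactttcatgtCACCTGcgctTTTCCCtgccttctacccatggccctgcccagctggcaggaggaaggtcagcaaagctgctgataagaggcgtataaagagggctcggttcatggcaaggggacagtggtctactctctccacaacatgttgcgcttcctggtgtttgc
Ctrb1 (chr8:111690961-111691260, minus strand): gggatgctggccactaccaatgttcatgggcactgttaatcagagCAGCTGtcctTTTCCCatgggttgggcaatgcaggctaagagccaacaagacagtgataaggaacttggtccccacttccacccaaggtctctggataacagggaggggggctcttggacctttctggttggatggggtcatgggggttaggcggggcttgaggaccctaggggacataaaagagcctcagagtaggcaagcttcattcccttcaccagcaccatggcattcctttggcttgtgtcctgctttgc
Cel (chr2:28563354-28563653, minus strand): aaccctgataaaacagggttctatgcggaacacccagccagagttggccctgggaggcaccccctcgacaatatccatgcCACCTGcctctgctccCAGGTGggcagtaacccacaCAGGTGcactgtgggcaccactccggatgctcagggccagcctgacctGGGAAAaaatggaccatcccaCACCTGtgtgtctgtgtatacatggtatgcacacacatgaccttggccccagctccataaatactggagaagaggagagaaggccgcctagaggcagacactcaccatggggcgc
Reg3b (chr6:78370635-78370934, plus strand): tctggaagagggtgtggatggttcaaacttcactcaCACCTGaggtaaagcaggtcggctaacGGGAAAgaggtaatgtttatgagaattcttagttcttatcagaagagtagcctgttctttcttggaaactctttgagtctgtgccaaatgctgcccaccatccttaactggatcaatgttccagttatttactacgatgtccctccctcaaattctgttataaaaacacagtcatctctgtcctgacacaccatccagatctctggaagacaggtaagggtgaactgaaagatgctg

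The measured values of the acinar genes did not scale by a common factor between the rich preparations. Counting the 7 split markers and the 19 others together, the gap was larger within controls than within knockouts for 26 of 26 genes, with medians of 4.91 and 3.19. On the linear scale, knockout 1 held a median of 12.6% of the mean level of controls 2 and 3, from 5.66% for Gp2 to 42.3% for Cela3b, another elastase gene. Control 1 held a median of 3.23%, knockout 2 1.38% and knockout 3 1.60%. Erp27, an endoplasmic reticulum protein of acinar cells, read 6.32 and 6.07 in controls 2 and 3 and 3.55 in knockout 1, below the 3.77 of control 1. RMA values are compressed at both ends of the scale, and the part of this in the unequal shares was not tested. In 20 of the 26 genes the arrays kept the full order of controls 2 and 3, then knockout 1, then control 1, then knockouts 2 and 3. In 25 of 26 knockout 1 was above control 1, the exception being Erp27. All 26 were picked as counted genes, which fixes rich above poor inside each genotype, and 7 of them set the split. The counts of this order therefore partly restate the selection. The marker mean that set the split itself had gaps of 4.22 within controls and 2.63 within knockouts. The larger control gap in 26 of 26 genes therefore also partly restates the split.

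The secretory genes of the Reg family, small lectins made by acinar cells that rise in pancreatic injury, did not all differ to the same extent. Of 7 genes 5 were counted higher, 0 lower and 2 neither (Reg3g and Reg4). Reg1 read 12.03 and 11.93 in controls 2 and 3, 8.93 in knockout 1, 6.21 in control 1 and 5.60 and 6.08 in knockouts 2 and 3. Reg2 read 12.78 and 12.99 in controls 2 and 3, 10.33 in knockout 1 and 7.02 to 8.01 in the poor arrays. Both kept the order of the enzymes. Reg3b, the pancreatitis-associated protein, read 10.32 and 10.40 in controls 2 and 3 but 5.0 in knockout 1, close to the 4.37 of control 1 and the 4.48 and 4.74 of knockouts 2 and 3. Knockout 1 was thus close to the poor arrays for Reg3b, at a level under the array median, and whether any of these 4 values was above background is not known. Reg3a read 9.98 and 9.96 in controls 2 and 3 and 6.39 in knockout 1, with 4.70 to 5.21 in the poor arrays, and Reg3d read 7.74 and 8.01 in controls 2 and 3, 5.37 in knockout 1, 4.37 in control 1 and 4.14 and 4.20 in knockouts 2 and 3, again in the order of the enzymes. Reg3 genes lie side by side and are similar in sequence, so cross-hybridisation between them is possible and was not tested.

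The measured levels of the factors that set the acinar programme differed less than those of its products. Of 7 transcription factors of acinar cells, 0 were counted higher and 0 lower, with a median difference of 0.04. Ptf1a, the defining factor of the acinar lineage, read 6.89 and 6.47 in controls 2 and 3 against 3.55 in control 1, but knockout 1 at 3.70 lay between knockouts 2 and 3 (3.72 and 3.17). Its rich and poor arrays separated within controls and overlapped within knockouts. Nr5a2, a nuclear receptor that works with PTF1, had gaps of 0.26 within controls and -0.03 within knockouts. Rbpjl, the acinar subunit of PTF1, differed by 0.04 ± 0.22, and its dimmer probe set by 0.28. Bhlha15, which encodes MIST1 and organises the granules, stood lower in the rich controls, at 7.83 and 7.68 against 8.24 in control 1, with a gap of 0.09 within knockouts. Gata4 differed by 0.10 and Xbp1, the secretory stress factor, by -0.02. Gata4, Nr5a2 and Rbpjl read at most 4.4, 5.54 and 5.81 in any array, near or under the array medians of 5.39 to 5.49. Whether these 3 genes, or Ptf1a outside controls 2 and 3, were above background is not known. Their small differences therefore do not show stable levels. Creb3l1 had gaps of -0.35 within controls and 0.14 within knockouts. Xbp1, Bhlha15 and Creb3l1 are also active in other secretory cells, and no value here separates the islet from the acinar part of their signal.

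Of 15 receptors, enzymes and granule-fusion proteins of acinar cells 0 were counted in either direction, with a median difference of 0.14. Cckar, the cholecystokinin receptor that triggers enzyme release, read 4.22 and 4.40 in controls 2 and 3 and 2.42 in control 1, but 2.96 in knockout 1 against 2.80 and 3.06 in knockouts 2 and 3. Tmed11, a cargo receptor of the early secretory pathway, read 4.21 and 5.07 in controls 2 and 3 and 2.62 to 3.02 in the other 4 arrays. For both genes only the controls with the most acinar RNA stood apart. Both read under the array medians of 5.39 to 5.49 in every array, and whether their lower values were above background is not known. Tmed6, of the same protein family, differed by 0.53 ± 0.15, with 8.90, 8.88 and 9.09 in the rich arrays and 8.52, 8.54 and 8.25 in the poor ones, without overlap. Vamp8, a fusion protein of zymogen granules, differed by 0.35, and Rab3d by 0.09.

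**Figure D2:**
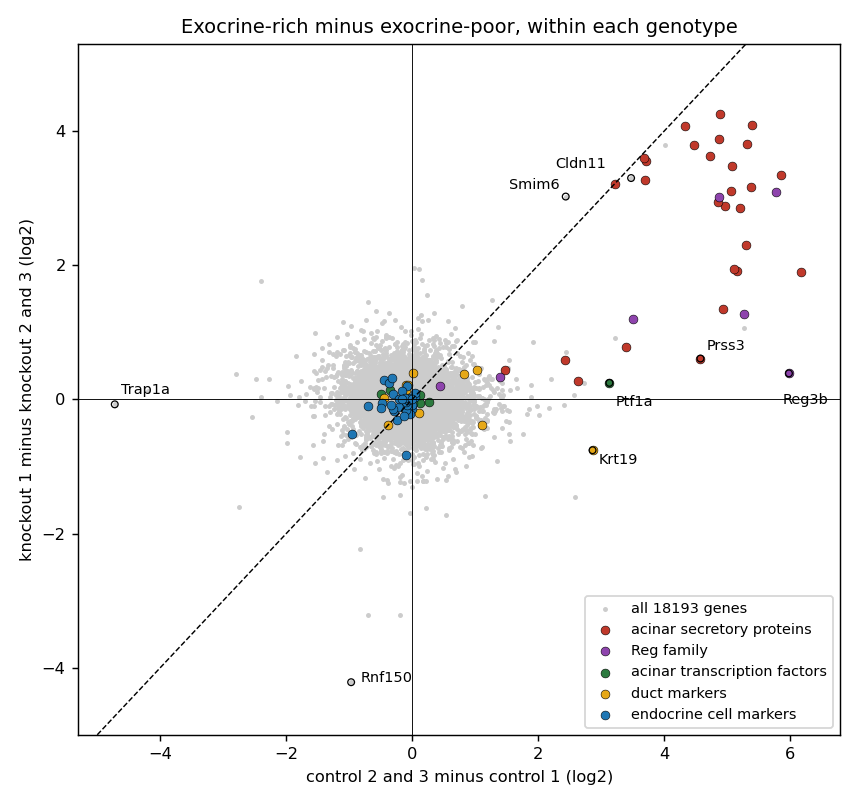
Rich-minus-poor gap of each of 18193 genes within controls (horizontal axis, log2) and within knockouts (vertical axis, log2), with acinar secretory proteins in red, Reg genes in purple, acinar transcription factors in green, duct markers in yellow and endocrine markers in blue. The dashed line marks equal gaps. All 26 counted acinar secretory genes lie below the dashed line, Reg3b sits at 5.98 and 0.39, and Cldn11 at 3.48 and 3.30.

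Outside the acinar and Reg lists 15 of 18135 genes were counted higher, 12 of them with a gene name. Cldn11, a tight-junction claudin, had the largest difference of these 12, 3.39 ± 0.23: it read 9.29 and 10.09 in controls 2 and 3, 8.16 in knockout 1, 6.22 in control 1 and 4.81 and 4.90 in knockouts 2 and 3. Its gaps of 3.48 and 3.30 were nearly equal in the genotypes. Smim6, a small membrane protein, read 7.27, 7.70 and 7.80 in controls 2 and 3 and knockout 1 and 5.05, 4.72 and 4.83 in the poor arrays, and was the only 1 of these 12 with a knockout gap above 3 besides Cldn11. Knockout 1 was as high as the rich controls for Smim6, although it carried far less of the enzymes.

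Klk1b5, a kallikrein-related peptidase, read 7.66 and 7.71 in controls 2 and 3 and 3.19 in knockout 1, against 2.05 to 2.42 in the poor arrays. Gjb2, the gap-junction protein connexin 26 that couples acinar cells, read 7.15 and 6.78 in controls 2 and 3 and 4.61 in knockout 1, against 3.55 to 3.85 in the poor arrays. Both placed knockout 1 between the rich controls and the poor arrays. Klk1b5 is a kallikrein gene like the split marker Klk1, so cross-hybridisation between these similar genes is possible and was not tested. The serine protease inhibitor genes Serpinb1a (1.57 ± 0.41) and Serpinb6b (1.39 ± 0.34) were lowest in control 1, at 4.97 and 2.69, and not in knockouts 2 and 3. Padi2, a peptidylarginine deiminase, read 7.32 in knockout 1 and 7.49 in control 3 but 5.97 in control 2, within the 5.46 to 5.99 of the poor arrays. Sprr1a, a protein of stressed epithelia, differed by 1.49 ± 0.52, and all 3 knockouts (9.59 to 9.93) stood above all 3 controls (5.85 to 8.68).

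Sbno2 (1.26 ± 0.51), the matricellular protein gene Ccn1 (1.08 ± 0.27), the growth-control factor Tead2 (1.07 ± 0.25) and the ganglioside enzyme B4galnt1 (1.05 ± 0.37) made up the rest of the 12. For B4galnt1 a dim second probe set differed by -0.22, and the other probe sets of Sbno2 differed by only 0.571, 0.484 and 0.365. The other 3, listed under clone identifiers, were 2210010C04Rik (3.90), 4732416N19Rik (1.09) and A930011G23Rik (1.001), named here after their values were seen. 2210010C04Rik differed more than Cldn11 and kept the order of the enzymes. It read 13.24 and 13.19 in controls 2 and 3, 11.26 in knockout 1, 9.20 in control 1 and 7.41 and 7.53 in knockouts 2 and 3. Being outside the lists does not show that it is not an acinar gene.

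The 16 genes counted lower held 0 acinar or Reg genes, and several of them differed mainly within 1 genotype. Rnf150, a RING finger protein, read 8.69 and 9.53 in knockouts 2 and 3 and 4.14 to 5.38 in the other 4 arrays, so its gap was -4.22 within knockouts and -0.97 within controls. Cep85, a centrosomal protein, likewise read 8.08 and 7.38 in knockouts 2 and 3 and at most 4.72 elsewhere, but its second probe set differed by only -0.12. Trap1a, a tumour rejection antigen, read 7.37 in control 1 and 2.46 to 2.69 in all other arrays. Gdpd3, a lysophospholipase, read 8.58 in knockout 2 and at most 4.50 elsewhere. Rnf150 and Cep85 ran in the reverse of the enzymes' order, with most of the range between knockouts 2 and 3 and the other 4 arrays, while Trap1a and Gdpd3 each stood out in a single preparation.

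Tubb1, the beta-tubulin of platelets and their precursors, was lower in every rich array of both genotypes: 4.81, 4.95 and 4.97 in controls 2 and 3 and knockout 1, against 7.62 in control 1 and 6.63 and 6.54 in knockouts 2 and 3, a difference of -2.18 ± 0.26. The 3 rich arrays agreed to within 0.17, although their acinar levels differed widely. Rab6b, a Golgi GTPase, read 8.62 and 9.02 in controls 2 and 3 against 9.66 in control 1, and 6.63 in knockout 1 against 8.39 and 9.32 in knockouts 2 and 3, so rich controls overlapped poor knockouts. Serpina1b, an alpha-1-antitrypsin gene, differed by -1.31 and the collagen VI chain gene Col6a3 by -1.25, both dim, at 6.18 or less in every array. Skor1, Gab3, Pcdh8 and the interferon-inducible GTPase gene Gbp2b differed by -1.31, -1.24, -1.21 and -1.14. Dimmer second probe sets of Serpina1b, Skor1 and Pcdh8 differed by only -0.258, -0.154 and -0.264. The other 4, named after their values were seen, were Mtus2 (-1.12), Pdxdc1 (-1.08), Tgfb2 (-1.05) and Galnt13 (-1.02). Of the 16, 8 had a mean log2 value under 5.

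**Figure D3:**
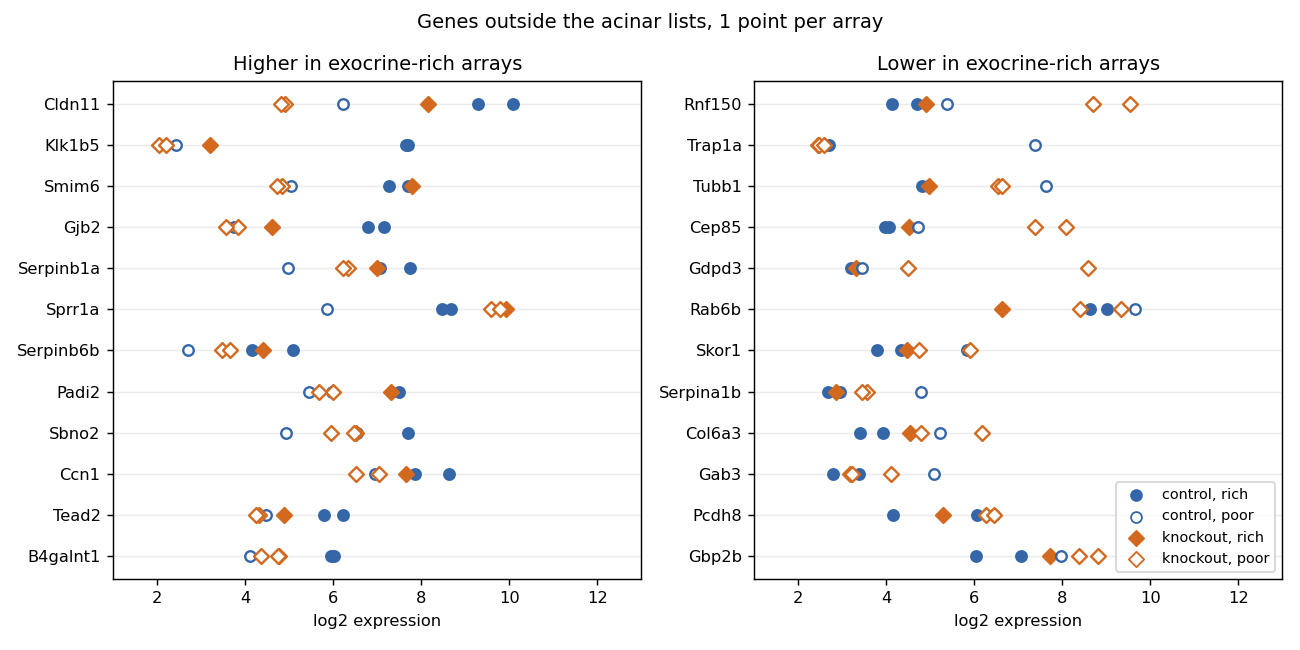
Log2 expression of the 12 highest and 12 lowest counted genes outside the acinar lists, clone identifiers passed over, with 1 point per array. Circles are controls and diamonds knockouts, filled for exocrine-rich and open for exocrine-poor preparations. Smim6 and Tubb1 place all 3 filled points together, while Trap1a and Rnf150 are set by 1 or 2 open points.

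Markers of duct cells, the other exocrine epithelium, did not follow the enzymes as a group. Of 13 measured, 0 were counted, with a median difference of 0.06 and list gaps of 0.36 within controls and -0.001 within knockouts. Krt19, a duct keratin, read 9.32 and 9.21 in controls 2 and 3 and 6.40 in control 1, whereas knockout 1 was the lowest array at 5.71, below knockouts 2 and 3 (6.71 and 6.22). Cldn4, an epithelial claudin, had gaps of 1.03 and 0.44, and Sox9, a transcription factor of duct cells, of 0.82 and 0.38. Krt19 therefore marked the rich controls and not the rich knockout.

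Non-epithelial cells were measured by lists of their own. Of 16 endothelial markers 0 were counted, but 15 had a negative genotype-adjusted difference, against 56.7% of all genes, and the median was -0.37. Flt1, a VEGF receptor, read 7.41, 8.02 and 8.14 in controls 2 and 3 and knockout 1 and 8.65, 8.76 and 8.56 in the poor arrays, without overlap. Its other probe sets differed by only -0.202, -0.345 and -0.146, and in each of them rich and poor arrays overlapped. Vwf, von Willebrand factor, differed by -0.58 ± 0.24, and Ptprb, the endothelial phosphatase, by -0.55 ± 0.11 with gaps of -0.53 and -0.57. The list gap was -0.57 within controls and -0.10 within knockouts. For 17 fibroblast, stellate and smooth muscle markers the gaps were -0.43 and 0.04, and Postn (-0.86), Lum (-0.56) and Col1a2 (-0.53) differed most, with control 1 the highest array for each. Without control 1 that list differed by 0.04.

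Blood cell markers showed no common direction. The 19 myeloid markers had gaps of -0.26 and -0.02, with the complement gene C1qc at -1.24 within controls and -0.14 within knockouts, H2-Eb1 at -0.57 and Ptprc, the pan-leukocyte phosphatase, at -1.49 and 0.29. Of 15 lymphoid markers the largest differences were those of Cd3d (0.37), Jchain (-0.32) and Il7r (0.26), all at log2 levels of at most 5.36. Of 5 adipocyte, 6 Schwann and 3 erythrocyte markers none was counted. Adipoq, which defines adipocytes, read at most 2.42 in any array, and the haemoglobin gene Hba-a1 at most 3.88, while the largest differences on the lists were those of Adipoq (0.14), Lep (-0.11), Retn (0.10), Ngfr (-0.47), Mbp (-0.22), Gfap (-0.13), Slc4a1 (-0.08), Alas2 (0.01) and Hba-a1 (0.00).

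Markers of the endocrine cells that share the preparation had small differences. Several of them, among them Ins2, Iapp, Gcg, Chga, Sst and Ppy, stood near the top of the array scale, where values are compressed. Small differences in these genes therefore do not show equal endocrine content. Of 20 beta cell markers 0 were counted, 19 had a negative genotype-adjusted difference, against 56.7% of all genes, and the median was -0.13. Ucn3, a peptide of mature beta cells, read 10.19 and 10.70 in controls 2 and 3 against 11.39 in control 1, and 9.47 in knockout 1 against 9.70 and 10.26 in knockouts 2 and 3, a difference of -0.73 ± 0.24. Slc2a2, the glucose transporter GLUT2, had gaps of -0.09 and -0.83, and the cation channel gene Trpm5 of -0.70 and -0.09. In Ucn3 the rich arrays were lower inside each genotype, while all 3 of these genes overlapped over the 6 arrays. The 5 alpha cell markers had a median of -0.01, with Pou3f4 at -0.12, Irx1 at 0.07 and Irx2 at 0.06. Without the genotype term the alpha list had a mean difference of 0.13. The 7 delta, PP and epsilon markers had a median of -0.07 and, without the genotype term, a mean of 0.12, with Hhex at -0.21, somatostatin (Sst) at -0.19 and pancreatic polypeptide (Ppy) at -0.10.

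Lists of secretion and stress genes differed little beside the enzymes. For 25 genes of endoplasmic reticulum folding and the unfolded protein response, which acinar cells use heavily, the median was -0.02 and the list gaps were 0.00 and -0.03, with Ddit3 (0.24), Calr (-0.13) and Manf (-0.10) furthest from 0. For 19 genes of amino acid synthesis and tRNA charging the median was 0.06, and Cth, an enzyme of cysteine synthesis, read 4.06 and 3.90 in controls 2 and 3 and 2.63 to 3.16 elsewhere. Gnmt differed by -0.29 and Phgdh by 0.15. Immediate early genes had gaps of 0.42 within controls and -0.02 within knockouts, and of 17 only Ccn1 was counted. Nr4a1 (0.49) and Klf6 (0.49) came next, but Nr4a1 read 7.60 in control 2 and 4.80 in control 3, so the rich controls differed widely. Of 16 inflammatory and acute phase genes 15 had a positive genotype-adjusted difference, with a median of 0.23 and 0 counted. Lcn2 (0.39 ± 0.35), Tnfaip3 (0.36 ± 0.33) and Nos2 (0.34 ± 0.15) led this list. Without the genotype term the list mean was -0.03 and not 0.18.

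The means of the heat shock and interferon lists lay opposite ways in the genotypes. Hspb1, a small heat shock protein gene, read 8.15 and 7.64 in controls 2 and 3 against 6.47 in control 1, and 5.62 in knockout 1 against 5.89 and 6.19 in knockouts 2 and 3. Hspa1b had gaps of 1.11 and -0.17 and Hspa1a of 0.75 and -0.24. The 27 interferon response genes had a mean of 7.98 and 8.24 in controls 2 and 3 against 8.71 in control 1, and 9.10 in knockout 1 against 8.66 and 9.01 in knockouts 2 and 3. Iigp1, an interferon-induced GTPase gene, had gaps of -1.56 and 0.68, Oasl2 of -1.14 and -0.10, and the chemokine gene Cxcl9 of -0.41 and -0.59. The difference between genotypes in these gaps was not tested. Among 9 proliferation genes, Top2a (-0.38), Ccna2 (-0.34) and Cdk1 (0.29) differed most and 0 were counted.

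**Figure D4:**
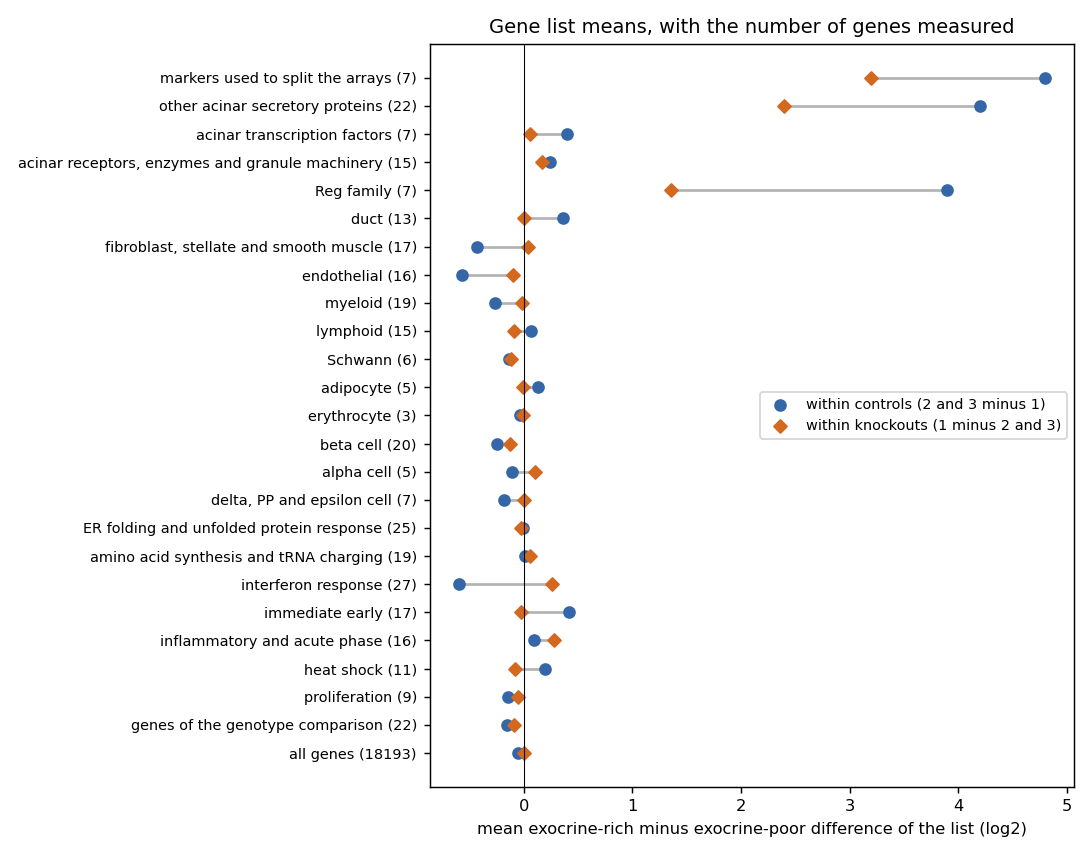
Mean rich-minus-poor difference (log2) of each gene list within controls (circles) and within knockouts (diamonds), with the number of genes measured in brackets and all 18193 genes in the last row. The 7 split markers (4.80 and 3.20), the 22 other acinar secretory proteins (4.20 and 2.39) and the Reg family (3.89 and 1.36) stand apart from lists of every other kind, which lie between -0.60 and 0.42.

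The genotype labels did not enter the split, and both classes hold both genotypes, so the difference between arrays labelled knockout and control could be tested with the exocrine class as a block. The question was how far the uneven acinar content bears on the genotype comparison of the study. The block can answer it only in part, because the marker mean still differed by genotype inside each class. It was 11.15 in both rich controls against 8.32 in the rich knockout, and 6.93 in the poor control against 5.62 and 5.76 in the poor knockouts. A small change with the block therefore cannot show that acinar content has little bearing. With the block 302 of 45037 probe sets passed an adjusted p of 0.05 (limma, Benjamini-Hochberg), 229 higher and 73 lower, against 404 without it, and 255 were called in both fits. On 1 probe set per gene, 112 genes were higher (0.616%) and 38 lower (0.209%), against 155 (0.852%) and 45 (0.247%) without the block. Of the 38 lower genes 7 were acinar secretory genes (Cela1, Cpb1, Zg16, Ctrl, Ctrb1, Prss2 and Cela3b), which set the split or share its order, so those calls are given no reading. The number of called probe sets depended on single arrays: leaving out knockout 1 brought it to 9, leaving out control 3 to 78, control 1 to 110 and control 2 to 116, and either of knockouts 2 and 3 to 107. With the marker mean as a continuous term in place of the class it was 91.

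A list of 21 genes of the genotype comparison moved little with the block, which leaves acinar differences between the genotypes inside each class. Of these 21 genes, taken from earlier results of these arrays and so no independent evidence, 21 were called without the block and 18 with it, and the median change in the difference was 0.08. With the continuous marker mean 9 of the 21 were called, and 3 were called in all 6 fits that left out 1 array. Cldn8, a claudin, read 8.25 ± 0.13 (SE) higher in arrays labelled knockout with the block and 8.32 ± 0.14 without it (limma, adjusted p = 4.73e-05 with the block). Its rich-minus-poor difference was -0.21. Tph1, the enzyme of serotonin synthesis, differed by 5.42 ± 0.39 with the block (adjusted p = 0.00737). Tmem47 moved most, from 4.25 ± 0.36 to 4.02 ± 0.30 (adjusted p = 0.00831), and to 3.56 with the continuous marker mean, and it read 5.04 in control 1 and 4.39 and 3.50 in the rich controls 2 and 3. Gdf3, a TGF-beta family ligand, differed by 3.82 ± 0.21 with the block (adjusted p = 0.00484), and its rich-minus-poor difference was -0.52. Mlph, a melanophilin gene, was lower in arrays labelled knockout, a difference of -2.17 on the log2 scale with the block and of -2.35 without it (adjusted p = 0.0184 with the block), and higher in rich arrays by 0.56. With the continuous marker mean the Mlph difference was -1.78 and did not pass (limma, adjusted p = 0.0675), and when each array was dropped in turn it passed in 1 of 6 fits, with adjusted p up to 0.125. Anpep, Tat and Reln were the 3 that no longer passed, with adjusted p = 0.064, 0.0568 and 0.0545.

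Some calls in the cell type lists also crossed the threshold. Slc30a8, the zinc transporter of insulin granules, differed by -0.88 ± 0.13 with the block (adjusted p = 0.0611) and by -0.82 without it (adjusted p = 0.0394). Rbp4 went from an adjusted p of 0.0265 to 0.0699, Il6 from 0.0415 to 0.0803 and Icam1 from 0.0232 to 0.0584. In the other direction, the cyclin gene Ccna2 differed by -0.89 ± 0.11 and passed with the block (adjusted p = 0.039) but not without it (0.0912). The myeloid gene Laptm5 (1.32 ± 0.13, adjusted p = 0.0184), the ghrelin receptor gene Ghsr (-1.17 ± 0.14, adjusted p = 0.0355), Cbs (-1.37 ± 0.13, adjusted p = 0.018), Gbp6 (1.07 ± 0.14, adjusted p = 0.0485) and the chloride channel gene Cftr (3.85 ± 0.23, adjusted p = 0.0052) passed in both fits. The differences with and without the block lay close together for each of these genes.

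**Figure D5:**
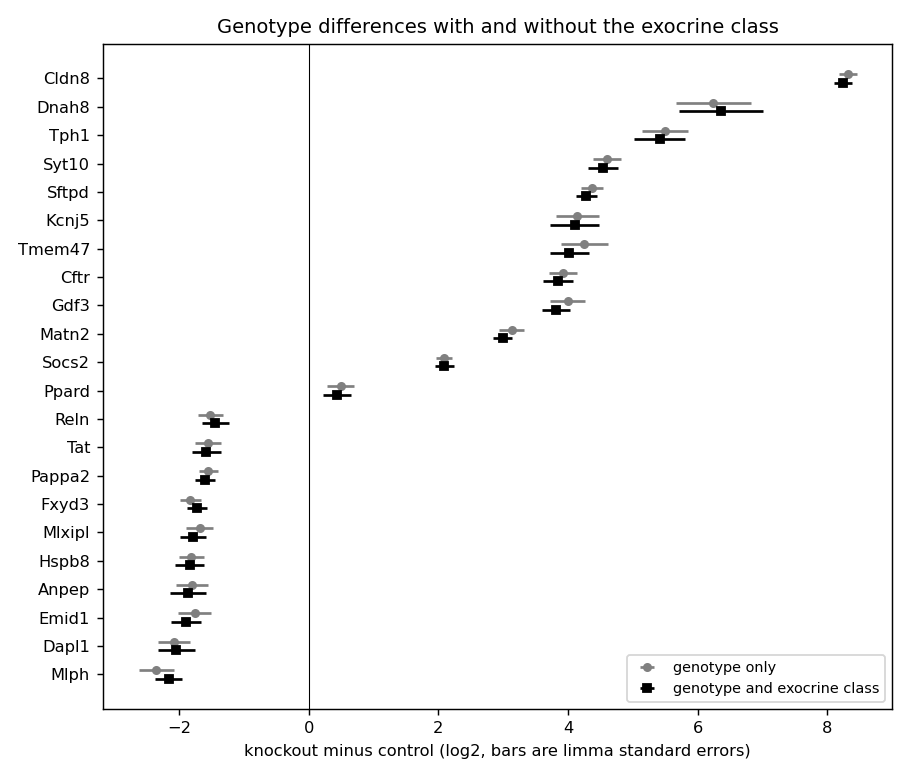
Difference between arrays labelled knockout and control (log2) for Ppard and 21 genes of the genotype comparison, with genotype as the only term (grey circles) and with the exocrine class added (black squares). Bars are limma standard errors from 3 arrays per genotype. The largest change between the fits is 0.23, for Tmem47.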

How the data were processed

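RNA of islets from 6 mice was measured on 1-colour Affymetrix arrays. The authors deposited log2 values, 1 for each probe set, made with RMA per the submitters' processing notes (version not given in the sources used here), which corrects background, normalizes quantiles and summarises probes. That scale carries no detection call and is compressed at both ends. Of 45101 probe sets, 64 manufacturer controls were left out. The platform annotation names 1 gene for 34945 of the remaining 45037, several for 932 and none for 9160, and 34741 were matched to RefSeq symbols (GRCm38.p6). The brightest probe set stood for each of 18193 genes. No scanner files were used here.

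Exocrine class was set by the mean of 7 acinar markers per array. Differences came from a fit with genotype and class in limma 3.58.1 (R 4.3.3), whose SE is given. Genes were counted at 2-fold or more (log2 difference of at least 1) without overlap in either genotype. Genotype was tested two-sided with eBayes and Benjamini-Hochberg adjustment over all 45037 probe sets. The fits were tested on simulated data. The named genes were the 7 markers, 7 acinar transcription factors and the 12 highest and 12 lowest counted genes outside the acinar lists, clone identifiers passed over. The 3 largest differences of each other list were added, and other genes were chosen after their values were seen. Of 361 entries on 24 lists, 31 could not be measured with a probe set of a single symbol. Markers, lists and tests were chosen with earlier results of these data known. Alternatives covered normalization, thresholds, probe sets, the split, left-out arrays and the replicate number. The 3 arrays per genotype limit the precision. Each array is a different animal per the series' design text.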

Additional observations from a re-analysis of the deposited data

Results flagged for a closer look

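Results are given here where every rich array lay on 1 side of the poor arrays within controls and on the other side within knockouts. The difference between the genotypes was not tested in any of them, and the values are the control gap minus the knockout gap on the log2 scale. Among gene lists these were the interferon response (-0.86), heat shock (0.28), alpha cell (-0.22) and lymphoid (0.16) lists. Among named genes the largest were Krt19 (3.62), Iigp1 (-2.24), Tmed11 (2.04), Hspb1 (1.86), Ptprc (-1.78), Cth (1.504) and Hspa1b (1.28). Creb3l1 (-0.49), Irx2 (-0.29) and Hba-a1 (-0.06) also met the condition at small sizes. Each gap compares 1 array with 2, so opposite directions can come from a single preparation. For Krt19, Tmed11 and Cth the rich controls stood above the other 4 arrays.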

How the results depend on the processing

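The counts of 46 higher and 16 lower genes were 45 and 16 after median centring, 45 and 15 after quantile normalization again, and 46 and 16 when the other acinar secretory proteins set the split. That split gave the same rich and poor arrays, so its counts are the same by construction. No genotype covariate gave 49 and 10. At 1.5-fold the counts were 107 and 119, at 4-fold 35 and 3, above a mean log2 value of 5 they were 40 and 8, and over every probe set with a single symbol 81 and 29. With 1 array left out the higher count ran from 46 to 155 and the lower from 19 to 188, highest without knockout 1, where 45 of the 46 higher and 12 of the 16 lower genes were still counted. Without control 1, 33 of the 46 and 6 of the 16 were. Chosen after seeing the data, leaving out the acinar and Reg genes gave 15 and 16, and leaving out knockout 1 and control 1 gave 180 and 319. The genotype count of 302 probe sets was 404 without the exocrine term, 91 with the continuous marker mean, 630 with an intensity trend, 320, 288 and 313 after centring, quantile normalization and the dim filter, and 9 to 116 with 1 array left out. Why these counts moved was not tested beyond the smaller number of arrays or genes. The replicate block left the rich-minus-poor counts at 46 and 16, since its estimate is the same by construction, and gave 223 genotype calls. Deviations of arrays with the same number correlated at -0.05, 0.14 and 0.01, and those with different numbers at -0.129 to 0.105. Each same-number pair also joins a rich with a poor array, so these values cannot decide whether equal numbers mark a shared batch. Of the single values for named genes under these settings 820 stayed within the spread between arrays and 210 moved, with 0 of the counted genes changing sign. For lists these were 196 and 44. Without control 1 the mean changed sign for the duct (-0.001), fibroblast (0.04), interferon (0.26), immediate early (-0.02), heat shock (-0.08), adipocyte (-0.008), alpha cell (0.10) and delta, PP and epsilon (0.004) lists, and other settings turned further lists whose mean was near 0.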
